A study of Homo sapiens with 54 samples.

Results

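LSM1 to LSM7 encode the 7 Sm-like proteins that close into the LSM1-7 ring, and 6 of them also sit in the LSM2-8 ring. Their messages were followed in H4 cells, a human line described as glioneuronal, in all 9 transfections and in both RNA fractions of the series. The 7 genes were chosen by name together with an earlier reading of these data, in which LSM2 message was gained in some Argonaute immunoprecipitates (IPs), so every IP value of a member is given below as a description, with no test. The 7 members had 9 probe sets, each assigned to 1 gene, and were 7 of 18417 genes with a symbol of their own on the array. LSM2 had 3 probe sets, which held identical values on every array and were counted once. All 7 passed the filter on dim genes and were among the 11050 genes tested.

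Each culture received 1 of 9 small RNAs by transfection and was harvested 48 h later. The tested RNAs were miR-107, miR-103, miR-195, miR-16, 2 altered forms of miR-107 (miR-107-mut1, miR-107-mut2), miR-15b* (an antisense control, which the sample titles write as miR-15b) and miR-320 (a control miRNA), and each was set against a negative control RNA of the supplier Ambion. The design text calls both altered forms and the negative control non-physiological, and no cells without a transfected RNA were measured. Each transfection gave an IP made with the anti-Argonaute monoclonal antibody 2A8 and the RNA of the total lysate, with 3 biological replicates each, on 54 Affymetrix Human Gene 1.0 ST arrays in 18 groups of 3.

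The LSM1-7 ring is cytoplasmic. It binds the 3′ end of messages that have lost most of their poly(A) tail, together with PATL1, and promotes removal of the cap by DCP2 and decay by XRN1. The LSM2-8 ring, in which LSM8 takes the place of LSM1, is nuclear and holds the 3′ end of U6 small nuclear RNA, a core RNA of the spliceosome. Argonaute carries a microRNA to messages that pair with its seed, and such messages are deadenylated and then decapped by the machinery the LSM1-7 ring serves.

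The natural small RNAs are shown because the LSM2 values below fall by transfected RNA, and bases 2 to 8, the seed, are in capitals. The sequences are the mature forms of RefSeq (GRCh38.p14), written 5′ to 3′.
miR-103: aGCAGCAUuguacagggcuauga
miR-107: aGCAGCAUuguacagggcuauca
miR-16: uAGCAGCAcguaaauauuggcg
miR-195: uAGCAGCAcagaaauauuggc
miR-15b*: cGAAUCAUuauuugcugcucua
miR-103 and miR-107 share 1 seed and differ by 1 base, G22C counted from the 5′ end with the miR-103 base first. miR-16 and miR-195 share a seed that is shifted by 1 base against theirs, and they differ by G10A and U11G, with the miR-16 base first, and in length, 22 bases in miR-16 and 21 in miR-195. The seed of miR-15b* shares neither, and miR-320 and the altered forms are given by name alone.

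The values are RMA summaries, read as log2 intensities. The log base is not stated in the sources used here, which limits every fold below. Array means were 3.61 to 3.65 in the IPs and 7.11 to 7.17 in the lysates, so levels were not set across the fractions without saying so. Replicates correlated at 0.796 to 0.973 in the IPs and 0.965 to 0.995 in the lysates over all probe sets. The 3 miR-15b* IP arrays stood apart, with mean correlations to their own replicates of 0.803, 0.883 and 0.847 over the genes tested, and the lowest such values in the lysates were those of replicate 2 of miR-15b* (0.894) and of miR-16 (0.908). Of the glial markers on the array, 1 of 6 was in the upper part of lysate levels (VIM, 99.0 percentile) and 5 were in the lower (S100B, GFAP, NES, OLIG2 and SLC1A3, 6.1 to 42.3). Of the neuronal markers 2 of 6 were in the upper part (ENO2 at 82.2 and MAP2 at 56.4) and 4 in the lower (NEFM, SYP, NEFL and RBFOX3, 16.6 to 46.2). Of markers of other cell types, 2 of 9 were in the upper part (KRT8 at 84.2 and KRT18 at 88.8), and PTPRC (1.8) and EPCAM (5.7) were near the bottom. These are bulk samples, in which fewer cells with a message and less message per cell cannot be told apart.

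LSM2 message was far higher in 2 IPs and lower in 5 than in the negative control IP. LSM2 lies at chr6:31797396-31806966 (GRCh38), and its protein belongs to both rings. In the miR-320 IP the 3 arrays gave LSM2 values of 11.11, 11.00 and 11.05, against 7.46, 7.11 and 7.55 in the negative control IP. The difference was 3.68 ± 0.38 (SE), a 12.8-fold rise in level, and only 3 of the 11050 genes tested had a larger one in that IP. The miR-320 replicates lay close together and far above every control array.

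In the miR-15b* IP, LSM2 values were 8.58, 10.03 and 10.50, against the same control values. All 3 arrays were above every control array, but their SD was 1.00, the widest of the 9 IP groups for LSM2. The difference was 2.33 ± 0.38 (SE), or 5.01-fold, first in size among the 11050 genes tested, and 2.89 without replicate 1, the array that agreed least with its group. LSM2 was the member of the 7 above the control in this IP, where 2.40% of all genes had 3 replicates wholly above the control, and likewise in the miR-320 IP, where 8.56% had. LSM2 chose the family, so nothing is read from its place among the genes.

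The miR-103 pair and the miR-16 pair ran the other way. LSM2 values were 6.50, 5.56 and 6.09 in the miR-103 IP, 5.84, 5.79 and 5.63 in the miR-107 IP, 6.29, 5.25 and 6.59 in the miR-16 IP and 5.96, 5.43 and 6.32 in the miR-195 IP. All 12 arrays lay below the lowest control array. The differences from the control IP were -1.33, -1.62, -1.33 and -1.48 in the same order (SE 0.38 each). After cyclic loess normalization they were -0.80, -0.85, -0.82 and -1.02, while the miR-320 difference was 3.68 and the miR-15b* difference 3.03.

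The altered forms of miR-107 parted from each other. LSM2 values in the miR-107-mut2 IP were 6.26, 6.02 and 6.90, all below the control, with a difference of -0.98 ± 0.38 (SE). In the miR-107-mut1 IP they were 7.29, 7.17 and 7.58, which overlapped the control at a difference of -0.03 ± 0.38 (SE). From the highest mean down, the order in the IP was miR-320 (11.05), miR-15b* (9.70), negative control (7.38), miR-107-mut1 (7.35), miR-107-mut2 (6.39), miR-103 (6.05), miR-16 (6.04), miR-195 (5.90) and miR-107 (5.75). Neighbours in that order did not overlap at 3 steps: below miR-320, below miR-15b* and between miR-107-mut1 and miR-107-mut2. All other neighbours overlapped.

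**Figure D1:**
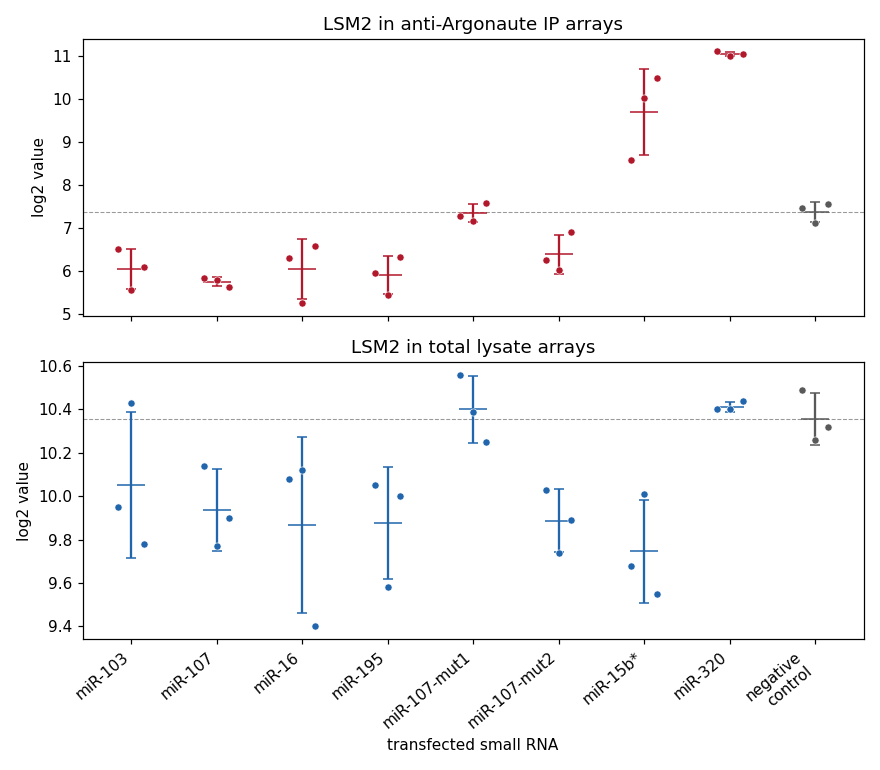
LSM2 values (log2) of the 3 arrays of each transfection, in the anti-Argonaute IP above and the total lysate below, with the mean and SD. The dashed line is the mean of the negative control. In the IP, miR-320 (11.00 to 11.11) and miR-15b* (8.58 to 10.50) stood above the control and miR-107 (5.63 to 5.84) below it, and the lysate scale spans a far smaller range.

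The level of LSM2 in the whole cell did not rise beside these gains. In the lysate, LSM2 values were 10.40, 10.40 and 10.44 with miR-320, against 10.49, 10.26 and 10.32 with the negative control, a difference of 0.05 ± 0.19 (SE) that was not called. With miR-15b* they were 9.68, 10.01 and 9.55, all below the control. That difference was -0.61 ± 0.19 (SE), a fall called at an adjusted p of 0.0480 (limma, Benjamini-Hochberg), 3 of 3 replicates lower. This call sat at the threshold: its adjusted p was 0.0539 with no filter, 0.19 in a fit of only the arrays compared and 0.13 without miR-15b* replicate 3, and 19 of 27 left-out arrays ended it.

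The other LSM2 lysate differences were -0.31 with miR-103, -0.42 with miR-107, -0.49 with miR-16, -0.48 with miR-195, 0.04 with miR-107-mut1 and -0.47 with miR-107-mut2, none of them called. With the replicate number as a block, the miR-16 difference had an adjusted p of 0.0461, against 0.0761 without it (limma). In a fit of only the arrays compared, the falls with miR-107 (0.0275), miR-195 (0.0479) and miR-107-mut2 (0.0142) were called. Without replicate 2 of the miR-15b* and miR-16 lysates, those with miR-16 (-0.62, 0.0298) and miR-195 (0.0495) were called, and the miR-15b* difference was -0.74 (0.0176). The order of lysate means, highest first, was miR-320 (10.41), miR-107-mut1 (10.40), negative control (10.35), miR-103 (10.05), miR-107 (9.94), miR-107-mut2 (9.89), miR-195 (9.87), miR-16 (9.86) and miR-15b* (9.75), and every pair of neighbours overlapped. LSM2 with miR-15b* was thus highest but one in the IP and lowest in the lysate, and its IP difference exceeded its lysate difference by 2.93.

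LSM2 was also set across the fractions within each transfection. On the deposited values its IP level minus its lysate level was 0.64 ± 0.03 (SE) with miR-320, at the 99.96 percentile of all genes, and -0.05 ± 0.60 with miR-15b*, at the 99.95 percentile. In the negative control it was -2.98 ± 0.15, at the 69.08 percentile, where the median gene had -3.69. With the other 4 natural RNAs it ranged between -4.18 and -3.82, at percentiles of 42.59 to 49.82. After joint quantile normalization of all 54 arrays, which removes the offset between fractions, the values were 4.04 with miR-320, 4.26 with miR-15b* and 1.27 with the negative control, where the median gene had 0.17. With the other 4 natural RNAs they were 0.59 to 0.80, at percentiles of 63.02 to 72.66, where the median gene had 0.12 to 0.18. With these 4, LSM2 was thus below the median gene on the deposited values and above it after joint normalization.

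Genes whose 9 IP group means ran most like those of LSM2 were TLR4 (Pearson r = 0.971), FKBP14 (0.955), ETS1 (0.947), RREB1 (0.946) and CEP85 (0.942), and 27 genes tested had r over 0.9. TLR4, the receptor for bacterial lipopolysaccharide, had an IP mean of 4.82 with miR-320, 4.56 with miR-15b* and 3.74 with miR-107, against 4.05 with the negative control, a much smaller range than that of LSM2. In the lysate the most alike were CDK5RAP2 (0.951), CDC23 (0.932), BUD13 (0.930), CCNJ (0.930) and TMEM268 (0.928), with 14 genes over 0.9. The 2 sets named share no gene. Each r rests on 9 group means that come from the same arrays, and no other member was near these values in the IP, where LSM3 was highest at 0.430. In the lysate the r of the other members with LSM2 ran from -0.843 for LSM7 to 0.716 for LSM3. The IP means of LSM2, which had a part in choosing the family, were 11.05 with miR-320, 9.70 with miR-15b* and 5.75 to 7.38 elsewhere. Those 2 groups thus weigh most in each IP r.

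LSM3, a subunit of both rings at chr3:14178817-14201122, had the largest IP falls of any member. Its values were 2.88, 2.21 and 2.73 in the miR-107 IP, against 4.45, 5.27 and 5.03 in the negative control IP, a difference of -2.31 ± 0.43 (SE), or 4.95-fold lower. The IP differences with miR-103, miR-16, miR-195 and miR-15b* were -1.96, -1.89, -1.67 and -1.79, and the arrays of these 5 groups were wholly below the control. The differences with miR-107-mut1 (-0.68), miR-107-mut2 (-0.78) and miR-320 (-0.48) were lower in the mean with overlapping arrays. LSM3 in miR-15b* IP replicate 1 was 1.81, against 3.58 and 3.97 in the other replicates of that IP. Its means in the 5 IPs wholly below the control were 2.61 to 3.25. These were under the IP array means of 3.61 to 3.65, and brightness over background could not be read. In the lysates of the same 5 RNAs its differences from the control were -0.51 (miR-15b*) to -0.94 (miR-16).

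LSM4, at chr19:18306236-18323076, also belongs to both rings. Its IP arrays were wholly below the control in 5 groups, by -0.72 with miR-103, -0.65 with miR-107, -0.55 with miR-16, -0.47 with miR-195 and -0.33 with miR-107-mut1 (SE 0.25 each). LSM5, a further shared subunit at chr7:32485338-32495283, was low in the IP, at the 20.8 percentile of genes. Its IP arrays were wholly below the control with miR-103 (-0.57), miR-107 (-0.52), miR-16 (-0.59) and miR-107-mut1 (-0.41), with an SE of 0.24.

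LSM6 (chr4:146175718-146191535) and LSM7 (chr19:2321521-2328586), the remaining shared subunits, and LSM1 (chr8:38163321-38176730), which is particular to the cytoplasmic ring, moved little in the IP. LSM6 was wholly above the control with miR-107-mut1, at 3.26, 3.48 and 3.74, against 2.91, 3.22 and 2.87. LSM1 and LSM7 overlapped the control in all 8 IPs, with differences of -0.43 to 0.08 for LSM1 and -0.44 to 0.06 for LSM7. LSM7 in miR-15b* IP replicate 1 was 3.82, against 6.20 and 5.64 in the other replicates of that IP. LSM1 and LSM6 lay at the 40.3 and 35.2 percentiles of IP levels, LSM3 at the 50.4, LSM7 at the 85.2, LSM4 at the 95.4 and LSM2 at the 97.6.

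Counted over the 7 members and 8 IPs, 3 of 56 were wholly above the control and 19 wholly below, where all genes gave 6.58% above and 12.0% below. By IP, the members wholly below were 4 with miR-103 (20.6% of all genes), 4 with miR-107 (26.0%), 4 with miR-16 (13.8%), 3 with miR-195 (11.6%), 1 with miR-15b* (6.83%), 2 with miR-107-mut1 (3.72%), 1 with miR-107-mut2 (8.33%) and 0 with miR-320. LSM6 was the 1 member above in the miR-107-mut1 IP, where 5.34% of all genes were. The IP chose the family, so the counts are given as they stand. The median IP difference of the 7 members was -0.57 with miR-103, -0.55 with miR-16, -0.52 with miR-107 and -0.43 with miR-15b*, where the median of all genes was -0.09, -0.08, -0.19 and -0.17 in the same order. It was -0.24 with miR-107-mut2, -0.22 with miR-195, -0.16 with miR-320 and -0.13 with miR-107-mut1, beside all-gene medians of -0.04, -0.07, -0.00 and 0.01. All 8 comparisons share the negative control arrays.

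**Figure D2:**
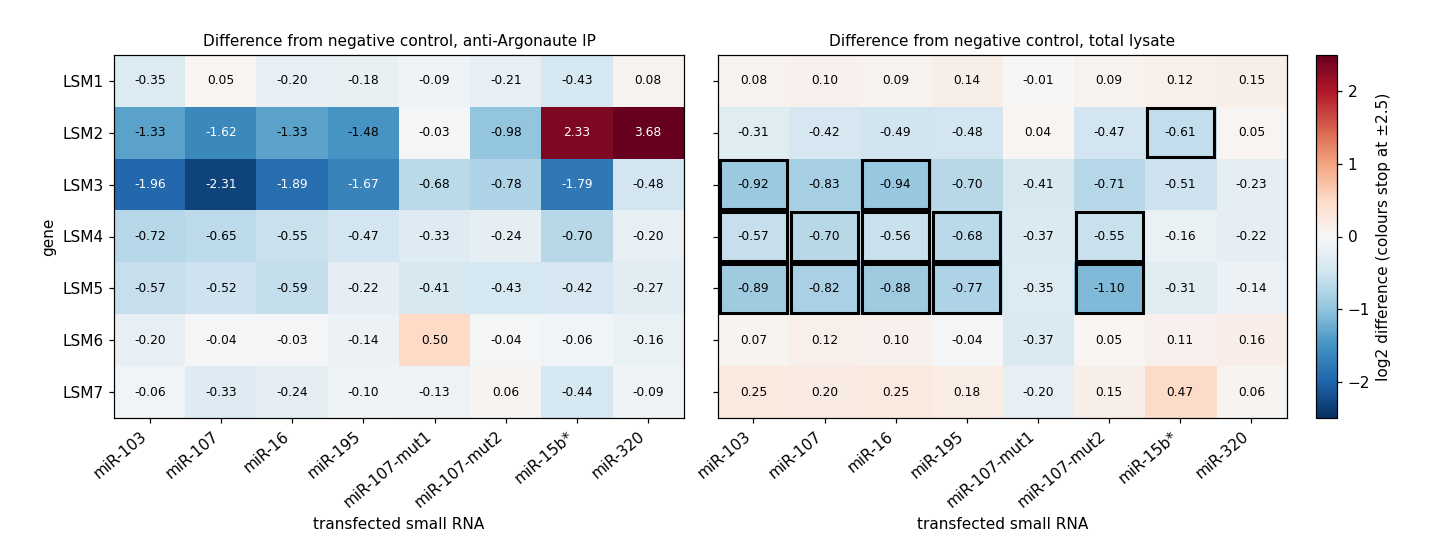
Differences from the negative control (log2) for the 7 members, one row a gene and one column a transfected RNA, in the IP (left) and the lysate (right). Black frames mark the 13 lysate differences called at an adjusted p under 0.05 (limma), and IP differences were not tested. LSM2 is the only member with IP differences above 1 (2.33 and 3.68), and the framed lysate cells lie in the rows of LSM2 to LSM5.

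The lysate arrays had no part in choosing the family and were tested. In the lysate, 13 of the 56 member differences were called and all 13 were falls, 23.2% of the member comparisons, against 12.0% of all gene comparisons called in either direction and 6.31% called lower (limma, Benjamini-Hochberg over 11050 genes). By transfection the falls numbered 3 with miR-103 (8.88% of all genes called lower), 2 with miR-107 (8.35%), 3 with miR-16 (7.45%), 2 with miR-195 (7.22%), 2 with miR-107-mut2 (7.58%) and 1 with miR-15b* (4.04%). With miR-320 (1.50%) and miR-107-mut1 (5.44%) 0 of 7 members were called, and at an unadjusted p under 0.05 that count was 0 and 2. The 8 comparisons share 1 set of control arrays: without negative control replicate 2 or replicate 3 the count was 5 of 56, or 8.93%, beside 7.78% and 8.31% of all gene comparisons.

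LSM4 fell in the lysate with 5 RNAs. Its lysate values were 10.73, 11.04 and 10.87 with miR-107, against 11.43, 11.65 and 11.65 with the negative control, a difference of -0.70 ± 0.15 (SE), 1.62-fold lower, with an adjusted p of 0.0016 (limma). It fell by 0.68 with miR-195 (adjusted p = 0.0022), by 0.57 with miR-103 (0.0089), by 0.56 with miR-16 (0.0100) and by 0.55 with miR-107-mut2 (0.0132). In each of these groups all 3 arrays were below every control array. The calls with miR-107, miR-195 and miR-16 held whichever array was left out (the last had 0.12 in a fit of only the arrays compared), the miR-103 call ended without miR-103 replicate 1 (0.0501) and the miR-107-mut2 call without negative control replicate 2 (0.0606) or 3 (0.0594).

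With miR-107-mut1, LSM4 was at 11.13, 11.30 and 11.21, a lysate difference of -0.37 with an adjusted p of 0.15, or 0.0211 with the replicate number as a block (limma). With miR-15b* and miR-320 its differences were -0.16 and -0.22 and were not called. The order of LSM4 lysate means, highest first, was negative control (11.58), miR-15b* (11.41), miR-320 (11.36), miR-107-mut1 (11.21), miR-107-mut2 (11.03), miR-16 (11.02), miR-103 (11.01), miR-195 (10.89) and miR-107 (10.88). The only neighbours that did not overlap were miR-107-mut1 and miR-107-mut2.

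LSM5 fell with the same 5 RNAs as LSM4, those with the most genes called in the lysate (1526 to 1906, against 327 to 969 with the others). With miR-107-mut2 its lysate values were 8.67, 8.49 and 9.19, against 9.46, 10.12 and 10.06 with the negative control, a difference of -1.10 ± 0.24 (SE), 2.14-fold lower, with an adjusted p of 0.0026 (limma), and this call held whichever array was left out. It fell by 0.89 with miR-103 (adjusted p = 0.0117), by 0.88 with miR-16 (0.0127), by 0.82 with miR-107 (0.0201) and by 0.77 with miR-195 (0.0320), all wholly below the control. These 4 calls ended without negative control replicate 2 (0.0731, 0.0783, 0.11 and 0.15) or replicate 3 (0.0581, 0.0644, 0.092 and 0.13). They also ended without 1 array of their own: replicate 1 of miR-103 (0.0564), of miR-16 (0.0502), of miR-107 (0.15) and of miR-195 (0.19), and replicate 2 of miR-195 (0.0542). The miR-16 and miR-195 calls were lost in a fit of only the arrays compared (0.0564 and 0.0637).

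LSM3 fell with miR-103 and miR-16. Its lysate values with miR-103 were 10.24, 10.01 and 10.36, against 10.59, 11.48 and 11.31 with the negative control, a difference of -0.92 ± 0.30 (SE) with an adjusted p of 0.0396 (limma). With miR-16 they were 9.96, 9.95 and 10.65, which overlapped the control by 1 array, at -0.94 ± 0.30 (SE) with an adjusted p of 0.0364 (limma). Neither call held without negative control replicate 2 (0.18 and 0.18) or 3 (0.13 and 0.13). Without its own replicate 1 the miR-103 call had 0.0745 and the miR-16 call 0.12, without its own replicate 2 they had 0.13 and 0.14, and without its replicate 3 the miR-103 call had 0.0572. In a fit of only the arrays compared the miR-16 call had 0.11, and after cyclic loess the miR-103 call had 0.0566. With the replicate number as a block, the LSM3 differences with miR-107 (-0.83), miR-195 (-0.70) and miR-107-mut2 (-0.71) were called as well, at 0.0062, 0.0210 and 0.0190, against 0.0736, 0.15 and 0.13 without it.

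**Figure D3:**
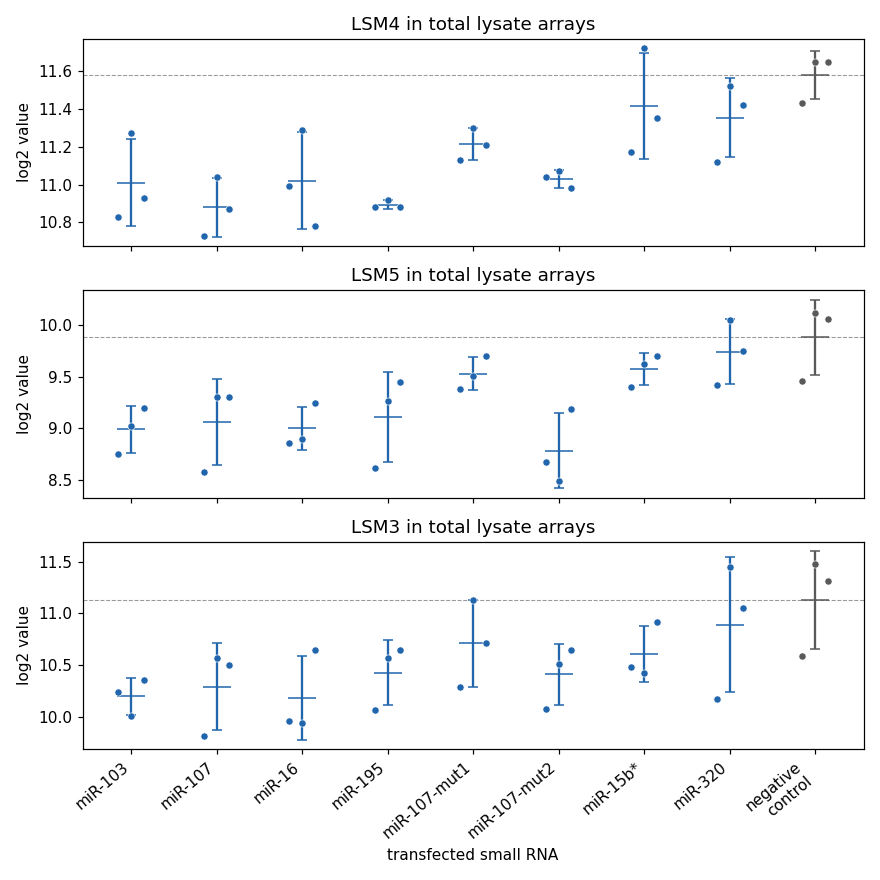
Total lysate values (log2) of LSM4, LSM5 and LSM3 on the 3 arrays of each transfection, with the mean and SD, and the negative control mean as a dashed line. LSM4 and LSM5 lie wholly below the control with miR-107-mut2, miR-103, miR-107, miR-16 and with miR-195, and negative control replicate 1 is the lowest of the control arrays for all 3 genes.

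Some markers of cell types were called higher in the lysates. ENO2, the neuronal enolase, rose with the 5 RNAs with which LSM4 and LSM5 fell, by 0.92 (miR-107-mut2) to 1.51 (miR-16), with adjusted p-values of 0.00038 to 9.7e-07, and also with miR-107-mut1 by 0.58 (0.0247, limma). Of the 5 neuronal markers tested, MAP2 was the other called, with miR-107-mut1 (0.68, 0.0188). Of the 4 glial markers tested, OLIG2 rose with miR-103, miR-107 and miR-16 (0.63, 0.59 and 0.68) and GFAP with miR-103 (0.39), and of 2 tested markers of other cell types KRT18 rose with miR-16 (0.77). No marker was called lower in any of the 8 comparisons. Over all genes, 5.72% of the lysate comparisons were called higher and 6.31% lower. SLC1A3, a glial glutamate transporter, was below the filter, which used the mean of IP and lysate arrays together, and was not tested. Its lysate means were 7.35 to 7.64 with those 5 RNAs and 6.24 with the negative control. They were 7.38 with miR-107-mut1, 7.12 with miR-320 and 6.96 with miR-15b*, so its mean was above the control with every RNA.

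Over whole lists, the group means of the 6 glial markers were 7.54 to 7.69 with those 5 RNAs and 7.16 with the negative control, whose highest array was at 7.28. Those of the 6 neuronal markers were 7.34 to 7.48 and 7.18, and those of the 9 markers of other cell types 6.34 to 6.43 and 6.23. Of the neuronal markers tested, ENO2 had by far the largest change with each of those 5 RNAs. With miR-16 it rose by 1.51, while MAP2 (-0.37), NEFL (-0.16), RBFOX3 (0.14) and SYP (0.22) were not called. With miR-320, where no member was called, the 3 list means were 7.35, 7.29 and 6.27. They were 7.47, 7.40 and 6.38 with miR-107-mut1, where no member was called either. For miR-15b*, where LSM2 alone was called, they were 7.52, 7.31 and 6.38. The neuronal mean with miR-107-mut1 and the other cell type means with miR-107-mut1 and miR-15b* thus lay inside the ranges of those 5 RNAs. The remaining means of miR-107-mut1 and miR-15b* lay between the control and those ranges. The part of these shifts in the member results was not tested.

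LSM1, LSM6 and LSM7 had no called lysate difference. LSM1 spanned only 9.32 to 9.48 over the 9 group means, with differences of -0.01 to 0.15 and a 95% interval of -0.15 to 0.46 for the highest. LSM7 was higher in the mean in 7 of 8 comparisons and had 9.36, 10.00 and 9.36 with miR-15b*, against 9.11, 9.12 and 9.08, a difference of 0.47 ± 0.20 (SE) with an adjusted p of 0.17 (limma). LSM6 with miR-107-mut1 was at 7.51, 7.28 and 7.26, all below the control values of 7.72, 7.82 and 7.62, a difference of -0.37 ± 0.14 (SE) with an adjusted p of 0.10 (limma). In the lysate the median difference of the 7 members was -0.49 with miR-16, -0.48 with miR-195 and -0.47 with miR-107-mut2, and 0.05 with miR-320, where the median of all genes was 0.05, 0.01, 0.03 and 0.00.

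The transfected RNAs were set against each other in the lysate in 5 contrasts, 35 tests of members adjusted within each contrast over all genes. For miR-107 against miR-107-mut1, LSM6 was 7.67, 7.96 and 7.90 with miR-107 and 7.51, 7.28 and 7.26 with miR-107-mut1, a difference of 0.50 ± 0.14 (SE) with an adjusted p of 0.0158 (limma), the 1 call among the 35. In that contrast 6.96% of all genes were called higher. The call ended without replicate 2 or 3 of miR-107 (0.0827 and 0.0633) or of miR-107-mut1 (0.0639 and 0.0795).

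For the same pair, LSM2 differed by -0.46 (95% interval -0.85 to -0.08, adjusted p = 0.12, limma), LSM4 by -0.33 (-0.64 to -0.03, 0.16) and LSM5 by -0.47 (-0.97 to 0.02, 0.25), all with the miR-107 arrays wholly below those of miR-107-mut1. With the replicate number as a block, LSM4 and LSM5 were called there, at 0.0276 and 0.0317. Between miR-107 and miR-107-mut2 no member was called: LSM4 differed by -0.15 (95% interval -0.46 to 0.15) and LSM5 by 0.28 (-0.22 to 0.77). Of all 11050 genes, 0 were called between miR-103 and miR-107, and the same held for miR-16 against miR-195. There LSM4 differed by 0.13 (-0.18 to 0.43) and 0.12 (-0.18 to 0.43). When the mean of miR-103 and miR-107 was set against that of miR-16 and miR-195, the 7 member differences ran from -0.06 for LSM3 (95% interval -0.50 to 0.39) to 0.12 for LSM2 (-0.15 to 0.40).

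Across the fractions of the negative control, members ranged widely in IP level minus lysate level. On the deposited values LSM2 had -2.98 and LSM7 -3.44, above the all-gene median of -3.69, while LSM4 had -4.47, LSM6 -4.72, LSM1 -5.99, LSM3 -6.21 and LSM5 -7.09. LSM5 lay at the 0.65 percentile of all genes in this difference. Its control IP mean was 2.79, under the IP array means of 3.61 to 3.65, and brightness over background could not be read. The control IP means of LSM1 (3.35) and LSM6 (3.00) were under them too. For these genes a low difference cannot be told from a dim IP signal. After joint quantile normalization the order was kept: LSM2 1.27, LSM7 0.88, LSM4 -0.15, LSM6 -0.67, LSM1 -1.74, LSM3 -1.80 and LSM5 -2.90, around a median of 0.17.

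The partners of the rings were read from 4 lists. Of the 11 decapping and P-body genes, all tested, 9 of 88 lysate comparisons were called lower and 0 higher, where all genes gave 6.31% lower and 5.72% higher (limma). LSM14B, a P-body protein of the LSM14 family, accounted for 7 of the 9, at 8.32, 8.32 and 8.23 with miR-107-mut1, against 8.68, 8.87 and 8.82 with the negative control. That difference was -0.50 ± 0.09 (SE, adjusted p = 0.00061), and with miR-15b*, the eighth RNA, it was -0.18 and not called (0.22). DCP2, the decapping enzyme, fell with miR-16 by 0.77 (adjusted p = 0.0324) and DCP1A, its cofactor, with miR-15b* by 0.47 (0.0147). The other DCP2 differences were called as well with the replicate number as a block (limma): lower with miR-103 (-0.53, 0.0058), miR-107 (-0.38, 0.0463), miR-15b* (-0.60, 0.0041), miR-195 (-0.60, 0.0021), miR-320 (-0.47, 0.0374) and miR-107-mut2 (-0.71, 0.00048), and higher with miR-107-mut1 (0.60, 0.0033). The LSM14B calls with miR-103, miR-107, miR-195 and miR-107-mut1 held whichever array was left out (limma). Its call with miR-16 was lost with 21 of 27 left-out arrays, that with miR-320 without miR-320 replicate 2 or negative control replicate 2 or 3 (up to 0.10), and that with miR-107-mut2 without its replicate 1 or negative control replicate 2 (up to 0.0652). The DCP2 call ended without miR-16 replicate 1 or 2 or negative control replicate 2 or 3 (up to 0.15), and the DCP1A call without miR-15b* replicate 2 or negative control replicate 2 or 3 (up to 0.10).

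In the IP, the same list had 5 comparisons called lower and 1 higher, where all genes gave 0.99% and 0.422% (limma). DCP1B, another DCP2 cofactor, was at 7.37, 7.40 and 7.38 in the miR-320 IP, against 5.74, 5.86 and 6.30 in the negative control IP. This rise of 1.42 ± 0.26 (SE, adjusted p = 0.0014) came in the same IP in which LSM2 was highest. DCP1B fell in the miR-103, miR-107 and miR-16 IPs by 1.12, 1.39 and 1.03 (adjusted p = 0.0210, 0.0031 and 0.0473). PATL1, which bridges the LSM1-7 ring and the decapping enzyme, fell by 1.71 in the miR-107 IP (0.0119) and by 1.62 in the miR-16 IP (0.0312). With miR-320 it was at 8.03, 7.56 and 8.06, against 7.74, 7.46 and 8.14, and the difference of 0.10 was not called. Under the replicate block PATL1 was also called lower in the miR-103 (-1.36, 0.00069), miR-15b* (-1.26, 0.0034), miR-195 (-1.43, 0.00083) and miR-107-mut2 (-0.90, 0.0481) IPs, and DCP1B in the miR-15b* (-0.96, 0.0078), miR-195 (-0.87, 0.0131) and miR-107-mut2 (-0.90, 0.0177) IPs (limma). The DCP1B calls with miR-320 and miR-107 held whichever array was left out (limma), while its call with miR-16 was lost with 21 of 27 left-out arrays and that with miR-103 without any 1 of the miR-103 replicates or negative control replicate 3 (up to 0.17). The PATL1 call with miR-107 ended without miR-107 replicate 2 or negative control replicate 3 (up to 0.0984), and that with miR-16 without miR-16 replicate 1 or 2 or negative control replicate 1 or 3 (up to 0.23).

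Of 13 U6 and tri-snRNP partners, 10 were tested, LSM8 was below the filter, and SNU13 and LARP7 had no probe set of their own. In the lysate 7 of 80 comparisons were called lower and 1 higher, where all genes gave 6.31% lower and 5.72% higher (limma). PPIH, a peptidyl-prolyl isomerase of the tri-snRNP, made 5 of the 7 falls, with the same 5 RNAs as LSM4 and LSM5. Its lysate values were 8.61, 9.04 and 8.85 with miR-103, against 9.78, 10.17 and 10.17 with the negative control, a difference of -1.20 ± 0.21 (SE) with an adjusted p of 0.00028 (limma), and the 5 falls ran from 1.13 with miR-107-mut2 to 1.35 with miR-16. MEPCE, a methyltransferase that caps 7SK RNA, fell with miR-107-mut2 by 0.86 (0.0063) and with miR-107 by 0.61 (0.0498). USB1, the exonuclease that trims the end of U6, rose with miR-16 by 0.51 (0.0328). Under the replicate block MEPCE was also called lower with miR-195 (-0.57, 0.0296) and USB1 higher with miR-195 (0.37, 0.0134). All 5 PPIH calls and the MEPCE call with miR-107-mut2 held whichever array was left out (limma). The MEPCE call with miR-107 was lost with 18 of 27 left-out arrays, and the USB1 call without miR-16 replicate 2 or any 1 of the negative control replicates (up to 0.25).

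In the IP 0 of 80 comparisons of that list were called, and 6 were under an unadjusted p of 0.05 (limma). Of the Sm and U7 ring genes, whose proteins form the rings of the other spliceosomal RNAs and of U7, 6 of 10 were tested and 0 of 48 comparisons were called in either fraction, with 6 in the lysate and 7 in the IP under an unadjusted p of 0.05. LSM12 and NAA38, Sm-fold genes outside these rings, also had 0 of 16 calls in either fraction, with 3 in the lysate and 6 in the IP under that p. Beside these counts, 12.0% of all gene comparisons were called in the lysate and 1.41% in the IP. The median difference over a list's comparisons was -0.07 for decapping, -0.05 for U6 partners, -0.02 for Sm and U7 genes and 0.03 for LSM12 and NAA38 in the lysate, and -0.19, -0.08, -0.11 and -0.19 in the IP. With the replicate number as a block, calls over the 4 lists came to 34 in the lysate and 29 in the IP, against 17 and 6 without it.

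**Figure D4:**
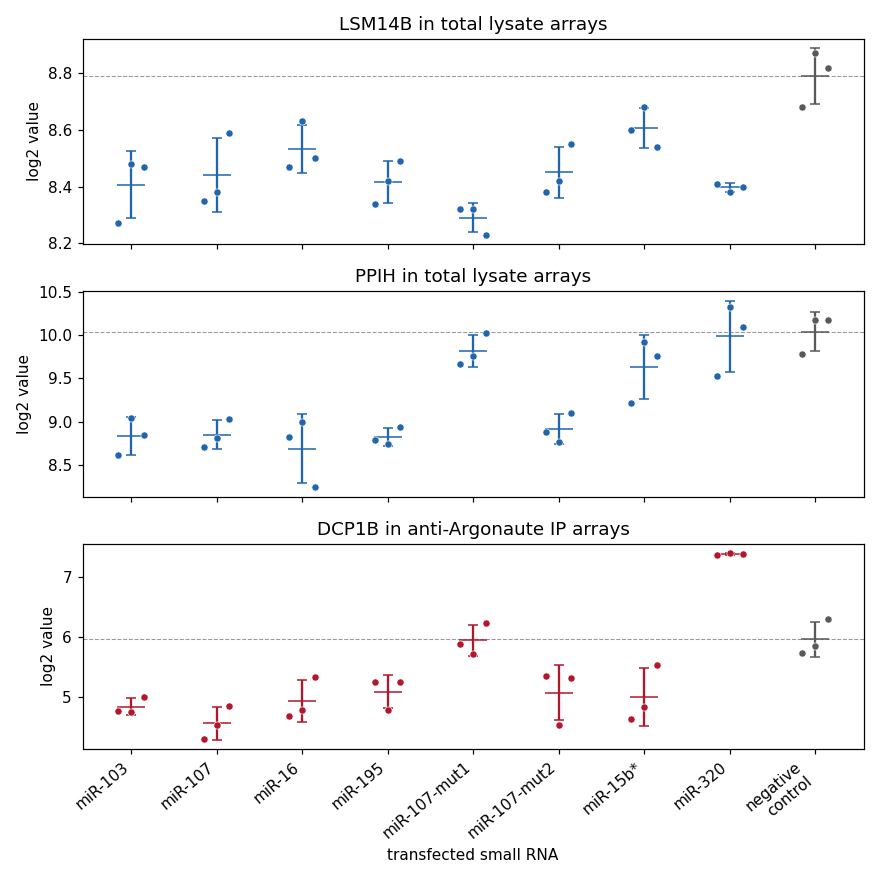
Values (log2) of LSM14B and PPIH in the total lysate and of DCP1B in the anti-Argonaute IP, on the 3 arrays of each transfection, with the mean and SD and the negative control mean as a dashed line. LSM14B is below the control in every group, PPIH is low with miR-107-mut2, miR-103, miR-107, miR-16 and with miR-195 (8.24 to 9.10), and DCP1B is high with miR-320 (7.37 to 7.40).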

How the data were processed

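RNA was extracted with Trizol LS and labelled with the Ambion WT expression kit, per the labels' protocols. The authors deposited RMA summaries made in Affymetrix Expression Console (version 1.1 in the submitters' processing notes), which were taken to be log2 values. Brightness over background could not be read from them, so precision rests on the number of arrays.

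A single symbol was given for 19460 of 33297 probe sets, several for 1754 and none for 12083. Where a gene had several probe sets (769 genes), the brightest on average was used, which left 18417 genes. After removal of the dimmest 40% (mean over all 54 arrays, IP and lysate together, below 5.26), 11050 remained. IP values thus bore on which genes the lysate tests covered. SLC1A3, with a lysate mean of 7.25, was left out, while GFAP, with 6.69, was tested. The 27 IP arrays and the 27 lysate arrays, 9 groups each, entered separate limma 3.58.1 models (R 4.3.3, data.table, version 1.17.8), adjusted by Benjamini-Hochberg over all genes tested and called at an adjusted p under 0.05. Percentiles are places among the 18417 genes. The models were tested on simulated data with independent noise on each array and known changes with miR-107. Changes of 0.5 and 1.0 (log2) were recovered at 29.9% and 82.1% in the lysate and at 6.0% and 35.8% in the IP. Figures were drawn in matplotlib 3.10.9 (Python 3.11.15).

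The members and lists were chosen with earlier results of these data known. Genes named are the members, up to 3 called genes of a list with the largest mean change in a fraction, and the 5 most like LSM2 in each fraction. The lists held decapping and P-body genes, U6 and tri-snRNP partners, Sm and U7 ring genes, other LSM-named genes, and glial, neuronal and other cell type markers.

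In the labels' descriptions, arrays of 1 replicate number share a code. Their deviations from group means had a mean correlation of 0.27 (IP, -0.15 to 0.67) and 0.31 (lysate, -0.47 to 0.95), against -0.13 and -0.14 for arrays of different numbers. The replicate number was therefore added as a block in a second fit, given where it changed a call of a member or a named gene.

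Other settings tried were no filter, removal of the dimmest 60%, array weights, only the arrays compared, cyclic loess, trended and robust moderation, the mean of a gene's probe sets, and each array left out. Pairing sites in messages were not analysed here for want of transcript sequences.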

Additional observations from a re-analysis of the deposited data

Results flagged for a closer look

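LSM2 with miR-15b* moved in opposite directions in the fractions: all 3 IP arrays were above the control (difference 2.33) and all 3 lysate arrays below it (-0.61), so the IP difference exceeded the lysate difference by 2.93, and this gap was not tested. LSM6 with miR-107-mut1 was wholly above the control in the IP (0.50) and wholly below it in the lysate (-0.37), a gap of 0.87 that was not tested. Its IP means were low, 3.49 against 3.00 in the control, under the IP array means of 3.61 to 3.65. Its lysate fall was not called (adjusted p = 0.10, limma).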

How the results depend on the processing

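The number of IPs with LSM2 wholly above the control was 2 under cyclic loess. The 13 lysate calls of members became 8 with the filter of the lowest 60%, which removed LSM5 and LSM6 from the test. These 8 were 14.3% of the 56 member comparisons, those of the removed genes included, beside 14.5% of all gene comparisons called. With array weights the member calls numbered 35 (46.3% of all gene comparisons called, against 12.0%), and left-out arrays gave 5 to 14. They came to 18 with the replicate block (18.2% of all). The 1 call between transfections became 0 with the stricter filter, 3 with only the arrays compared, 11 with array weights, 3 with the replicate block and 2 without replicate 2 of the miR-103 and miR-16 lysates, a pair fixed from an earlier reading, or of the miR-15b* and miR-16 lysates, which agreed least with their groups and were chosen after seeing the data, and 0 to 1 with arrays left out. The 17 lysate list calls became 10 with the stricter filter, 92 with array weights, 34 with the replicate block and 10 with the mean of probe sets, and left-out arrays gave 10 to 19. The 6 IP list calls became 14 with only the arrays compared, 21 with array weights and 29 with the replicate block, and left-out arrays gave 2 (without negative control replicate 3) to 16 (without miR-15b* replicate 3). Over all genes, IP calls were 1.41% of comparisons and became 2.45% with cyclic loess, 2.99% with only the arrays compared, 5.76% with array weights, 5.64% with the replicate block, 0.529% without negative control replicate 3 and 3.87% without miR-15b* replicate 3. The LSM2 lysate difference with miR-107-mut1, 0.04, turned to -0.04 without miR-107-mut1 replicate 1 and to -0.0021 without negative control replicate 2. Without the pair of miR-103 and miR-16, the LSM3 calls had adjusted p-values of 0.12 and 0.14 and the LSM5 call with miR-16 had 0.0504 (limma), and without the pair of miR-15b* and miR-16 the LSM3 call with miR-16 had 0.11. Except where a setting names its own loss of genes or arrays, the cause was not tested. Estimation of the array weights stopped before its tolerance, with weights of 0.02 to 120 in the lysates, so that setting is given as counts and shares only. With 3 arrays a group, small differences are not resolved.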
